A study of Mus musculus with 12 samples.

Results

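Cre-mediated deletion of the floxed Hoxa cluster was examined by comparing the 3 Hoxa-del libraries with the 3 Hoxa-flox libraries, 6 of the 12 libraries of the series. Of 25263 symbols in the table, the 13169 whose mean over the 12 libraries reached 1 FPKM were compared. FPKM scales fragments to transcript length and to the size of the library, and the symbol nearest the limit averaged 1.0007 FPKM inside it and 0.9995 outside. RNA came from mouse bone marrow cells made leukemic by MA9, the MLL-AF9 fusion, which drives acute myeloid leukemia. Hoxa-flox cells were C57BL/6J with a floxed Hoxa cluster and received a control retrovirus. Hoxa-del cells had the same origin and received a Cre retrovirus. WT-GFP (control virus) and WT-Cre (Cre virus) were C57BL/6 MA9 cells with an unmodified cluster, 3 libraries each. They show the change with Cre in other leukemic cells, with no floxed cluster present. Starting levels of some genes differed widely between the 2 kinds of cells. *Cd34* averaged 68.9 FPKM in Hoxa-flox and 2.03 in WT-GFP, and *Id2* 0.94 and 25.2. A WT change therefore describes the WT cells and may not hold for the floxed ones. All cells were kept overnight with SCF, GM-CSF, IL-6 and IL-3, spun with virus and sorted for high GFP. The labels do not say whether the replicates are separate cultures or animals or whether the floxed line is 1 clone. Each p-value therefore measures only the spread between these libraries, pooled over all 12 unless stated. In bulk RNA, fewer cells with a transcript and less of it per cell cannot be told apart.

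Hoxa genes encode homeodomain transcription factors that set position along the body axis and sustain hematopoietic progenitors. MLL fusions keep the posterior members of the cluster active, and Hoxa9 acts with Meis1 and Pbx proteins at enhancers of myeloid cells. Cre recombinase excises DNA between loxP sites, so a deleted cluster leaves no template for new transcripts.

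The 6 floxed libraries did not divide by virus. The first principal component held 64.4% of their variance and separated Hoxa-flox 1 (-42.1), Hoxa-flox 2 (-38.5) and Hoxa-del 2 (-40.6) from Hoxa-flox 3 (37.8), Hoxa-del 1 (37.6) and Hoxa-del 3 (45.7). These are called the first and the second set below. Each set holds both viruses, so the change with Cre was also taken within each. Median SDs of a gene were 0.29 in Hoxa-flox and 0.36 in Hoxa-del on the log2(FPKM + 1) scale, against 0.12 in both WT groups. Estimated depths ran from 6.33 M to 15.1 M fragments in the floxed libraries and from 3.93 M to 18.6 M in the WT ones. Markers of leukemic myeloid progenitors were present, but not evenly. *Mpo*, 1 of these markers, was low in the first set, and its values are given below. *Cd34* lay between 55.3 and 75.9 FPKM, *Kit* between 24.5 and 38.4 and *Elane*, neutrophil elastase, between 841 and 1684. Of the other cell types, 10 B lymphoid genes summed to between 5.67 and 7.35 FPKM in Hoxa-flox and between 3.21 and 6.22 in Hoxa-del, and 10 erythroid genes to between 12.9 and 52.4 and between 17.9 and 62.0. The 16 T and NK lymphoid genes summed to between 625 and 642 and between 407 and 644. Most of this sum was *Cd28*, a costimulatory receptor of T cells, at 338, 344 and 560 FPKM in Hoxa-flox and 339, 414 and 453 in Hoxa-del, while *Cd3e*, which defines T cells, was listed at 0 in all 6. *Thy1*, a surface protein of T cells and progenitors, contributed 243, 228 and 43.3 FPKM in Hoxa-flox and 17.8, 163 and 28.7 in Hoxa-del.

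Transcripts of the Hoxa cluster were lower in Hoxa-del and still present. *Hoxa9* (chromosome 6, 52223100 to 52231089, GRCm38), the member most closely tied to MLL leukemia, measured 235, 217 and 257 FPKM in Hoxa-flox 1 to 3 and 83.5, 114 and 119 FPKM in Hoxa-del 1 to 3. The groups did not overlap, and Hoxa-del 1 was the lowest library. *Hoxa9* fell by 1.17 on the log2(FPKM + 1) scale (SE 0.16, adjusted p = 0.0422, limma with Benjamini-Hochberg adjustment over all 13169 symbols). Within the sets the change was -0.98 and -1.36, and in WT cells -0.05. The difference between the floxed and the WT change was -1.12 (SE 0.22) and missed the threshold over all genes (adjusted p = 0.78, limma).

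Other members on the 5′ side of the cluster had changes of a like size. *Hoxa10* (52231197 to 52240854) measured 127, 131 and 109 FPKM in Hoxa-flox and 28.3, 81.5 and 44.7 in Hoxa-del. *Hoxa11* (52242106 to 52245810) measured 41.0, 38.9 and 35.0 FPKM against 8.34, 23.5 and 16.9, and *Hoxa7* (52214491 to 52221854) 42.6, 40.5 and 53.2 against 13.2, 26.9 and 26.2. In all 3 genes the Hoxa-del libraries lay below every Hoxa-flox library, with Hoxa-del 1 the lowest and Hoxa-del 2 the highest. Their changes of -1.36 (SE 0.28), -1.29 (SE 0.28) and -1.06 (SE 0.23) did not pass the test (adjusted p = 0.719 each, limma). The WT changes were -0.09, -0.04 and -0.06, although *Hoxa11* averaged only 0.65 FPKM in WT-GFP, so its WT value says little.

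Anterior members, at the 3′ end, were lower as well. *Hoxa2* (52162417 to 52164831) measured 76.0, 76.5 and 44.0 FPKM in Hoxa-flox and 32.5, 40.0 and 28.5 in Hoxa-del (-0.91, SE 0.21, adjusted p = 0.719, limma), with no overlap. *Hoxa4* (52189671 to 52191753) measured 3.24, 4.01 and 5.31 FPKM against 3.07, 1.96 and 2.87, also with no overlap (-0.51, SE 0.21). The WT changes of *Hoxa2* and *Hoxa4* were 0.22 and 0.25. *Hoxa13*, below the filter, was at or under 0.67 FPKM in all 6 floxed libraries.

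In all, 1 of the 7 tested Hoxa genes passed the test, against 0.0304% of all symbols (4 of 13169), and 6 of 7 lay below Hoxa-flox in every library, against 4.14% of all symbols (545). The median change of the 7 genes was -1.06, beside -0.06 over all symbols. The residue differed between libraries and along the cluster. Hoxa-del 2 kept between 50.5% and 64.8% of the Hoxa-flox mean of its own set, with a narrow range over the 7 genes. Hoxa-del 1 kept only 23.8% of *Hoxa11*, 24.8% of *Hoxa7*, 26.0% of *Hoxa10* and 32.4% of *Hoxa9*, but 57.7% of *Hoxa4* and 73.9% of *Hoxa2*. *Hoxa7* to *Hoxa11* thus fell more than the anterior *Hoxa2* and *Hoxa4* in the second set (-1.36 to -1.59 against -0.52 and -0.67) and not in the first (-0.61 to -0.98 against -0.91 and -0.64). In percent of its own set, Hoxa-del 3 showed the same order, with 41.0% to 49.3% of *Hoxa7* to *Hoxa11* left, 54.0% of *Hoxa4* and 64.6% of *Hoxa2*. The second set has 1 control library, Hoxa-flox 3, in which *Hoxa2* was lower than in the other Hoxa-flox libraries. Against the mean of all 3 Hoxa-flox libraries, Hoxa-del 3 kept 43.4% of *Hoxa2*, beside 57.7% of *Hoxa7* and 50.3% of *Hoxa9*, so the order did not hold. In Hoxa-del 1 it did, with 49.7% of *Hoxa2* and 73.2% of *Hoxa4* against 21.8% to 35.3% of *Hoxa7* to *Hoxa11*. The difference between the sets was not tested.

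The *Hoxa9* call depended on single libraries. Its adjusted p was 0.286 without Hoxa-flox 1, 0.165 without Hoxa-flox 2, 0.0538 without Hoxa-flox 3, 0.0845 without Hoxa-del 1 and 0.0556 without Hoxa-del 3, with a log2 change between -1.01 and -1.26 (limma). Without Hoxa-del 2, 4 more Hoxa genes passed in limma, *Hoxa10* with an adjusted p of 0.00781, *Hoxa11* with 0.0393, *Hoxa7* with 0.0430 and *Hoxa2* with 0.0437. Without Hoxa-flox 3, *Hoxa2* passed (adjusted p = 0.0316, limma). With the set as a term in the fit, *Hoxa9* passed at 0.0311 and the other Hoxa genes did not.

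**Figure D1:**
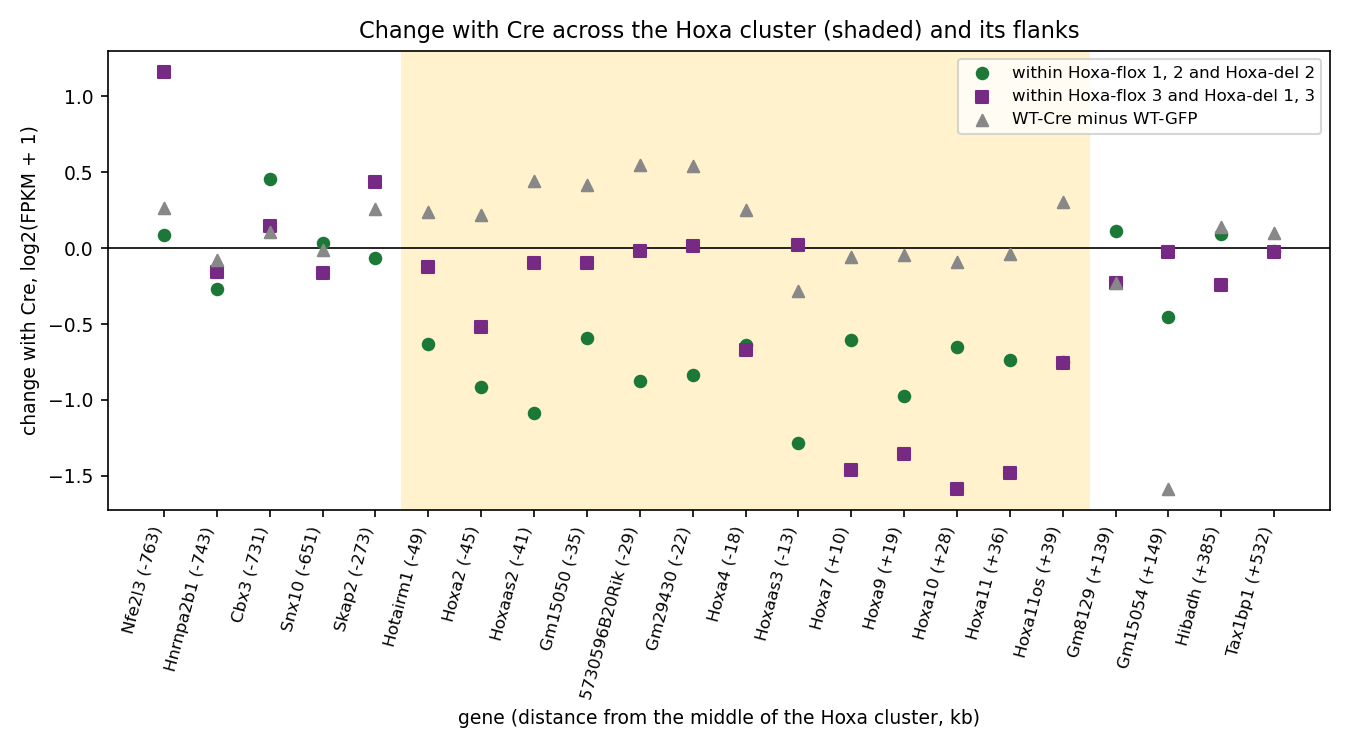
Change with Cre (vertical axis, log2 of FPKM + 1) of tested genes in and around the Hoxa cluster, ordered by distance from the cluster middle in kb; circles and squares are the change within each set of floxed libraries and triangles the change in WT cells. Genes from Hoxa7 to Hoxa11 lie between -0.61 and -1.59, while the WT points of these genes lie near 0.

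The plot across the cluster also holds its noncoding transcripts. The cluster lies on chromosome 6 and holds 14 tested symbols. *Hotairm1*, a noncoding RNA of its anterior end, measured 10.1, 10.4 and 2.11 FPKM in Hoxa-flox and 4.35, 6.24 and 0.53 in Hoxa-del. *Hoxa11os*, antisense to *Hoxa11*, measured 18.6, 12.2 and 7.97 FPKM against 3.56, 8.53 and 5.17. Hoxa-flox 3 was low in both, and the groups overlapped. *Hoxaas3* was -1.28 within the first set and 0.02 within the second, and *Gm29430* -0.83 and 0.01. Over the 6 floxed libraries all 5 tested members of the list of noncoding cluster transcripts were lower (-1.04 to -0.49). Their median was -0.77, with -0.75 and -0.10 within the sets and 0.30 in WT cells. Of the 7 transcripts other than the Hoxa genes, 0 were apart between the groups. The libraries were made with a stranded kit, but the sources used here do not say that counting used the strand, so reads of antisense partners may be shared.

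Outside the cluster the 9 tested genes within 1000 kb had a median change of 0.12 (-0.42 to 0.94), and 0 of them passed the test or stood apart between the groups. *Skap2*, an adaptor protein gene on the anterior side, measured 5.70, 8.25 and 21.3 FPKM in Hoxa-flox and 35.6, 6.54 and 23.9 in Hoxa-del, following the sets. *Hibadh*, on the posterior side, measured 22.9, 24.8 and 27.0 FPKM against 24.1, 25.5 and 21.5.

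The other 3 genes that passed were 2 lower and 1 higher. *Pgk1* (chromosome X), phosphoglycerate kinase of glycolysis, measured 2642, 2664 and 1791 FPKM in Hoxa-flox and 380, 417 and 622 in Hoxa-del, and fell by 2.33 (SE 0.23, adjusted p = 0.00354, limma). *Aebp1* (chromosome 11), a transcriptional repressor, measured 3658, 4037 and 2314 FPKM against 514, 668 and 821, and fell by 2.31 (SE 0.24, adjusted p = 0.00567, limma). In the WT cells *Pgk1* also fell with Cre, by 2.14 (adjusted p = 0.0168, limma), while the WT change of *Aebp1*, -1.80, missed the threshold (adjusted p = 0.0604, limma). *Aebp1* was nevertheless apart in WT cells, at 1180, 1134 and 1212 FPKM in WT-GFP against 346, 340 and 324 in WT-Cre. *Pgk1* was apart too, at 849, 718 and 746 against 165, 181 and 176 FPKM. Of all symbols, 16.3% were apart and lower with Cre in WT cells. The WT call of *Pgk1* was lost in limma without any 1 of WT-GFP 1, 2 or 3 or WT-Cre 2 or 3 (adjusted p from 0.0579 to 0.198) and with the replicate block (0.0705), although the change stayed between -2.07 and -2.19. The call held with only the WT groups fitted (adjusted p = 0.000501, limma) and with array weights (adjusted p = 9.77e-07, limma). It also held without WT-Cre 1 and with the other pseudocount, filters or rescaling. The difference between the genotypes was -0.19 (SE 0.32) and -0.50 (SE 0.35), with an adjusted p of 0.9997 for each (limma). *Pgk1* was 1 of the 2 symbols called in WT cells (0.0152% of all).

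*Rn7sk*, the 7SK small nuclear RNA that holds back transcription elongation factor P-TEFb, was listed at 0 in all 3 Hoxa-flox libraries. It measured 37208, 140447 and 34966 FPKM in Hoxa-del and averaged 52093 and 51081 FPKM in WT-GFP and WT-Cre. It was also the 1 symbol whose change with Cre differed between the genotypes (0.00759% of all, adjusted p = 1.01e-06, limma). An exact 0 in an FPKM file can be a failed estimate, and what set these values to 0 was not tested. In Hoxa-del 2 this row alone held 11.6% of all FPKM, against 4.62% and 5.17% in the other two.

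Calls outside these 4 genes hinged on the choice of libraries. Leaving out Hoxa-del 2 raised the count from 4 to 787 genes, 321 higher and 466 lower. The comparison then set 2 Hoxa-del libraries of the second set against 2 Hoxa-flox libraries of the first and 1 of the second. Leaving out Hoxa-flox 3 gave 12 genes, and Hoxa-flox 1 gave 2, the call of *Aebp1* being lost (adjusted p = 0.0522, limma). A fit of the 6 floxed libraries alone called *Rn7sk* only, with *Pgk1*, *Aebp1* and *Hoxa9* at an adjusted p of 0.965 (limma). The calls of these 3 genes thus rest on a fit that pools the spread of all 4 groups. That spread was smaller in the WT groups (median SD 0.12) than in Hoxa-flox (0.29) and Hoxa-del (0.36).

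Changes within the 2 sets were then set side by side for every gene. They were both positive or both negative in 6260 of 13169 genes (47.5%), and their correlation across genes was 0.12, a description over genes that share libraries and depth. Changes over 0.5 in both sets were found in 168 genes in the higher direction (1.28% of all symbols) and in 80 in the lower direction (0.607%). Without regard to sets the balance was the other way, with every Hoxa-del library above every Hoxa-flox library in 296 genes (2.25%) and below in 545 (4.14%). An unadjusted p under 0.05 was reached by 826 genes (6.27%). In WT cells, where the libraries varied less, WT-Cre lay above WT-GFP in all libraries for 1226 genes (9.31%) and below for 2153 (16.3%).

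**Figure D2:**
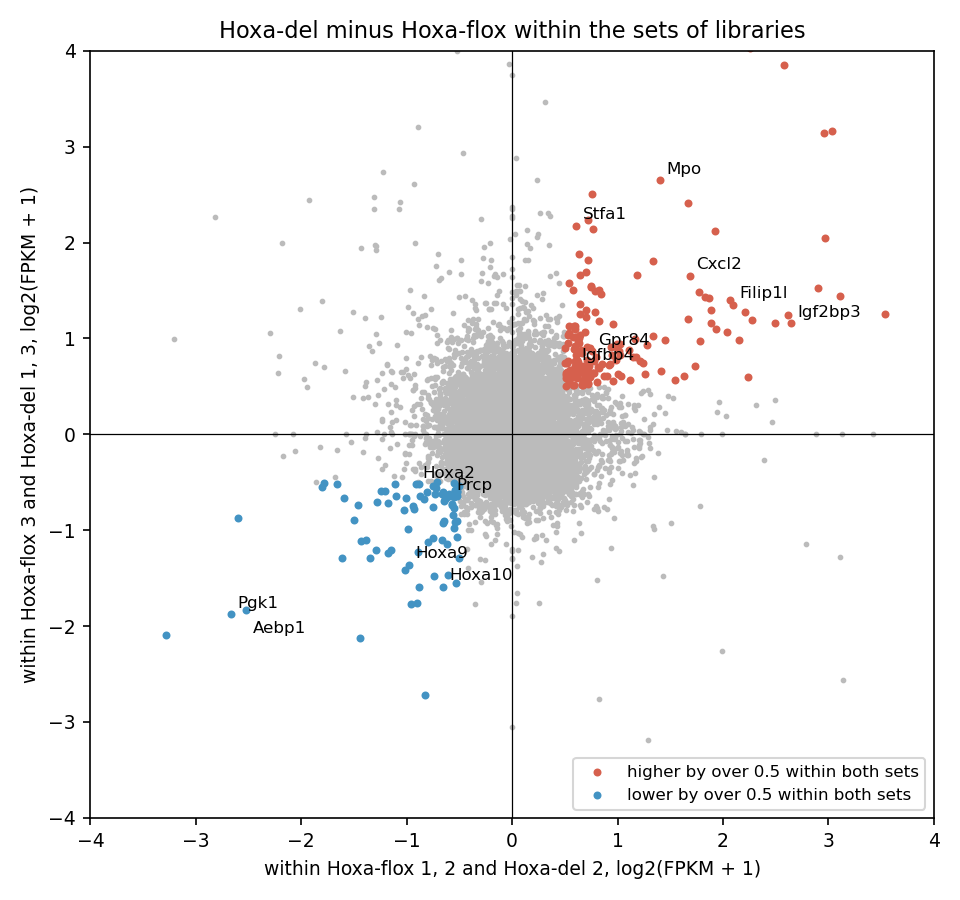
Hoxa-del minus Hoxa-flox on log2(FPKM + 1) within the first set (horizontal axis) and within the second set (vertical axis), 1 point per gene; 5 genes lie outside the plotted range, Rn7sk among them. Most genes form a round cloud near 0, and the colored points are the 168 and 80 genes past 0.5 in both sets.

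The 168 higher genes were checked against the WT change. In WT cells 116 of them also had a positive change, with a median of 0.22 beside -0.03 over all genes. WT-Cre was apart above WT-GFP in 29 (17.3%, beside 9.31% of all symbols) and apart below in 9 (5.36%, beside 16.3%). Row types differed too: of those matched in the annotation, 38.6% were protein-coding and 23.5% were small RNA genes, beside 81.7% and 2.58% of all matched symbols. A small RNA was annotated within 32.0% of them, beside 14.2% of all. The 80 lower genes differed from the table in the same way, with 45.5% protein-coding, 16.9% small RNA genes and a small RNA within 22.1%.

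Among the higher rows a group had the same lowest and highest libraries. *Igf2bp3*, an RNA-binding protein of fetal and leukemic cells, measured 180, 80.7 and 240 FPKM in Hoxa-flox and 259, 760 and 1109 in Hoxa-del. *Il31ra*, a cytokine receptor, measured 119, 51.4 and 110 FPKM against 135, 280 and 658. In both Hoxa-flox 2 was the lowest and Hoxa-del 3 the highest library. The phosphatase gene *Ptpn23*, the mitochondrial leucyl-tRNA synthetase gene *Lars2* and the noncoding *4930433N12Rik* had the same lowest and highest floxed libraries, with changes between 1.56 and 1.79. In WT cells *Igf2bp3* was 1.24 higher with Cre, *4930433N12Rik* 1.40, *Lars2* 1.02, *Il31ra* 0.58 and *Ptpn23* 0.57, and WT-Cre 3 was the highest WT library in all 5. None passed the test in the floxed cells (adjusted p = 0.729 each, limma).

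**Figure D3:**
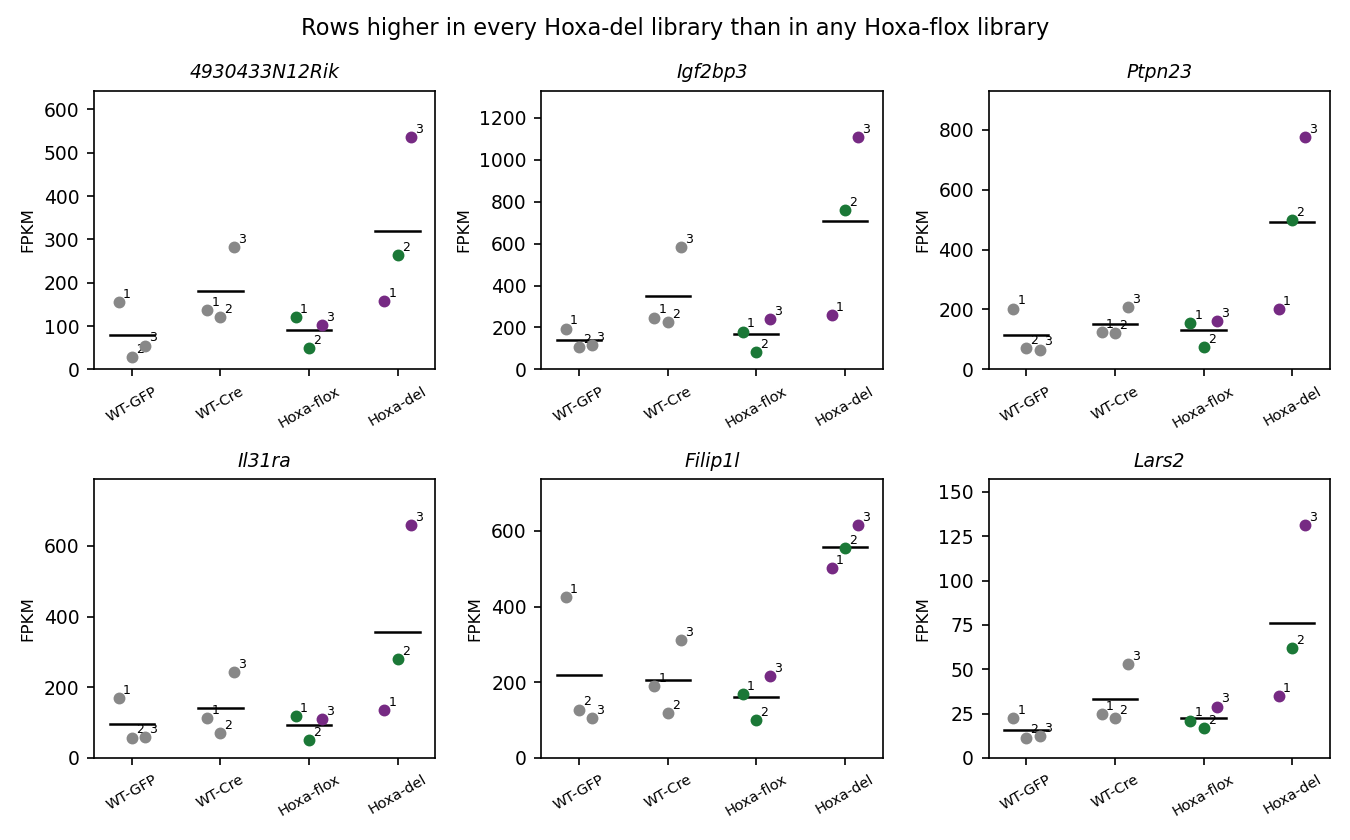
FPKM of 6 rows in each library (numbers are replicates; green, first set; purple, second set; grey, WT; bars, group means). 4930433N12Rik, Igf2bp3, Ptpn23, Il31ra and Lars2 have Hoxa-flox 2 lowest among the floxed libraries and Hoxa-del 3 and WT-Cre 3 highest in their genotypes, and Filip1l is between 503 and 614 FPKM in Hoxa-del.

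*Filip1l*, a filamin-interacting protein gene, differed from these in having even Hoxa-del values. It measured 168, 99.7 and 217 FPKM in Hoxa-flox and 503, 555 and 614 in Hoxa-del, a change of 1.85 (SE 0.51) that was 2.09 and 1.35 within the sets and 0.10 in WT cells. Its adjusted p was 0.729 (limma). The WT change rested on WT-GFP 1, at 424 FPKM against 128 and 104 in the other two, and was 0.73 (SE 0.40) without it. The small RNA rows *Snord82* (13.2, 11.4 and 24.4 against 40.4, 54.7 and 107 FPKM), *Snord16a* (5.17, 0 and 4.19 against 33.6, 8.45 and 13.7) and *mmu-mir-703* (0, 0 and 7.42 against 28.4, 7.62 and 16.7) were apart as well. Their WT changes were 1.17, 1.203 and 2.41, and *mmu-mir-703* was higher in every WT-Cre library than in any WT-GFP library. These are very short transcripts, whose FPKM depends strongly on length.

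Leaving out rows with a small RNA and noncoding rows left 53 higher and 32 lower protein-coding genes. *Gpr84*, a receptor for medium-chain fatty acids on neutrophils and macrophages, measured 2.64, 3.31 and 3.20 FPKM in Hoxa-flox and 9.82, 5.70 and 4.40 in Hoxa-del. *Igfbp4*, which binds insulin-like growth factors, measured 41.4, 45.7 and 40.8 FPKM against 87.5, 66.2 and 51.9. Both were apart and evenly higher within the sets (0.76 and 0.87, 0.59 and 0.71), and both went the other way in WT cells, where they were lower in every WT-Cre library (-0.29 and -0.36). The differences between the genotypes were 1.15 and 1.01 and missed the threshold (adjusted p = 0.9997 each, limma).

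Other higher genes were *Stfa1*, a stefin of neutrophil precursors (66.5, 93.3 and 55.9 against 616, 121 and 106 FPKM), and *Samd9l*, a growth-restraining gene of myeloid cells (7.93, 9.82 and 10.4 against 31.5, 14.1 and 14.5). Hoxa-del 1 was far above the other two in both. *Slc7a11*, the cystine transporter and an ATF4 target, measured 3.38, 2.24 and 3.24 FPKM against 7.61, 4.59 and 4.28. *Baiap2*, an adaptor of the actin skeleton, measured 2.99, 2.87 and 2.07 FPKM against 5.03, 6.92 and 4.23. These 4 were apart, with changes of 1.49, 0.93, 0.69 and 0.80 and WT changes of 0.23, 0.33, -0.24 and -0.06.

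The 80 lower genes had a WT median of -0.06, and WT-Cre was apart below WT-GFP in 11 of them (13.8%, beside 16.3% of all symbols). Of the protein-coding genes outside the cluster, *Prcp*, a lysosomal carboxypeptidase, measured 59.2, 53.9 and 41.1 FPKM in Hoxa-flox and 26.8, 37.3 and 25.2 in Hoxa-del (-0.77, SE 0.17). *Ppdpf* measured 39.7, 36.5 and 27.2 FPKM against 17.3, 23.8 and 17.7 (-0.78, SE 0.18). *Pdlim5*, a PDZ and LIM domain scaffold, was nearly constant at 19.1, 18.8 and 19.4 FPKM in Hoxa-flox and scattered to 7.96, 12.4 and 15.9 in Hoxa-del (-0.66, SE 0.19). All 3 were apart, with adjusted p between 0.719 and 0.729 (limma). Their WT changes were -0.15, -0.34 and 0.00, and *Prcp* and *Ppdpf* were lower in every WT-Cre library than in any WT-GFP library, while *Pdlim5* overlapped.

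*Tgtp2*, an interferon-induced GTPase gene, measured 10.9, 10.8 and 4.82 FPKM in Hoxa-flox and 3.72, 4.804 and 1.38 in Hoxa-del, apart by a narrow margin. *Nudt6* (6.22, 5.34 and 6.02 against 3.16, 3.80 and 3.52 FPKM) was as low with Cre in WT cells (-0.61 and -0.59). *Tmem106b*, a lysosomal membrane protein gene, measured 11.98, 13.7 and 14.5 against 8.98, 6.44 and 11.1 FPKM, with a WT change of 0.02.

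**Figure D4:**
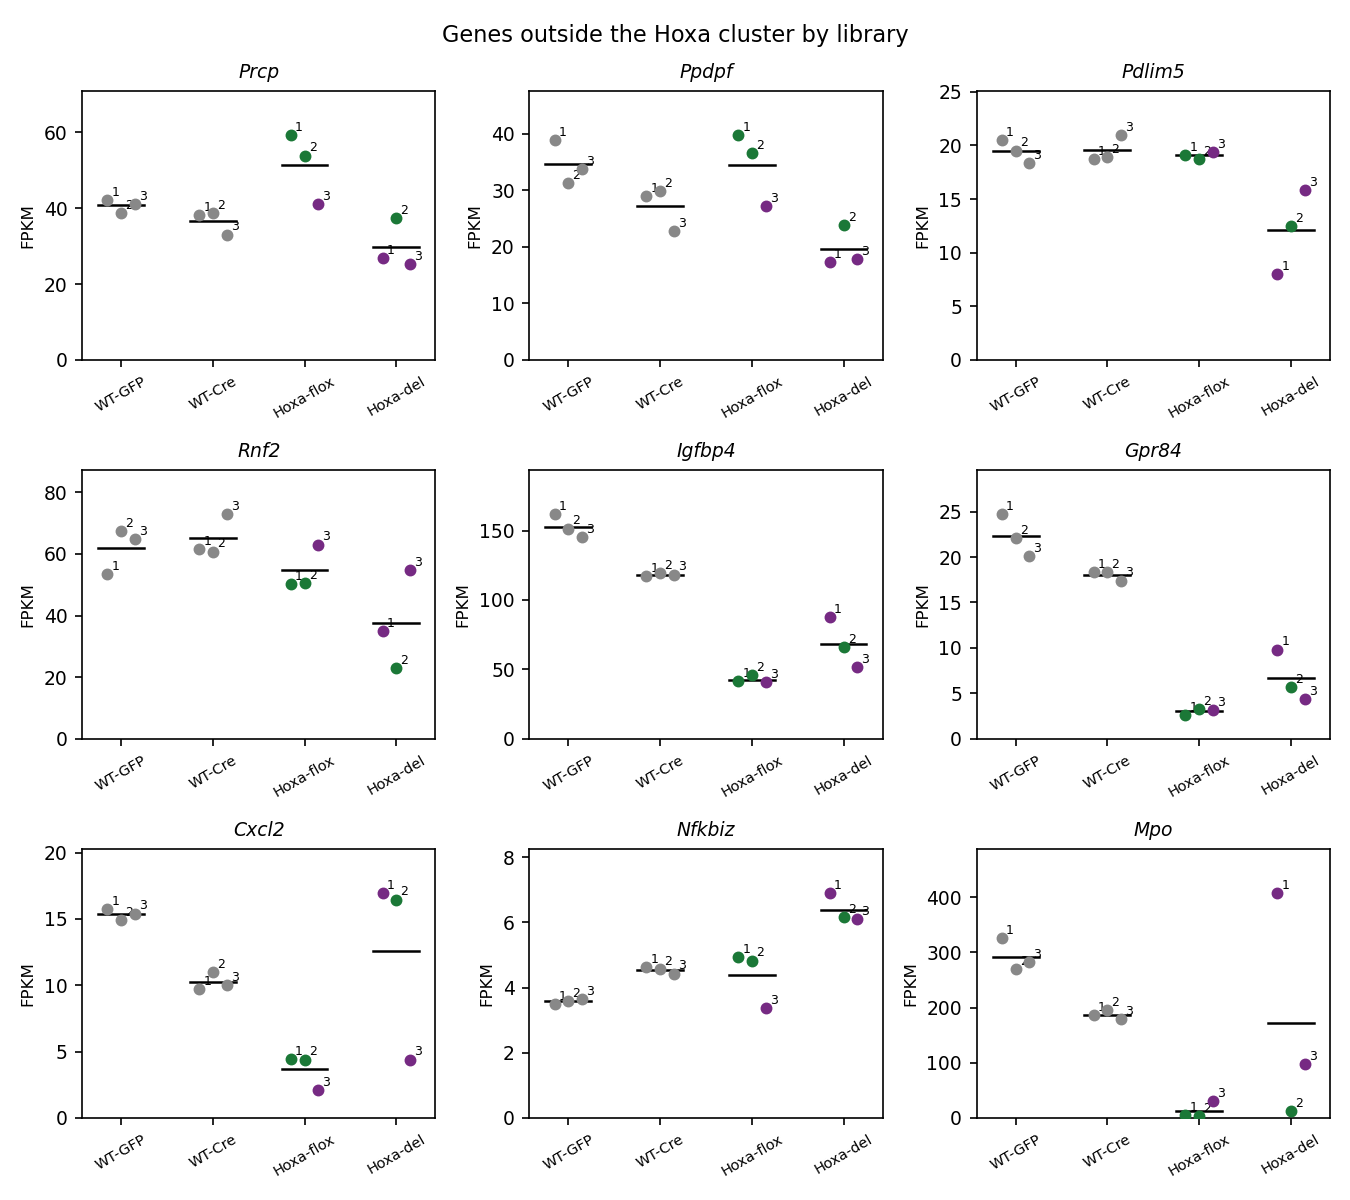
FPKM of 9 genes outside the Hoxa cluster in each library (numbers are replicates; green, first set; purple, second set; grey, WT; bars, group means; axes start at 0). Prcp, Ppdpf and Pdlim5 are lower and Igfbp4, Gpr84 and Nfkbiz higher in every Hoxa-del library, while Rnf2, Cxcl2 and Mpo overlap between the groups.

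Gene lists were then read for partners and targets of Hoxa9 and for the state of the cells. The 37 lists held 635 tested genes. Of these, 0 passed higher and 2 passed lower, *Hoxa9* and *Pgk1*, and in the other 35 lists 0 genes passed. Groups were apart in 12 of the 635 genes in the higher direction (1.89%, beside 2.25% of all symbols) and 22 in the lower (3.46%, beside 4.14%), so that the lists as a whole held no more such genes than the table.

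Of the TALE cofactors that bind DNA with Hox proteins, 0 of 6 passed. *Meis1* measured 51.8, 55.3 and 74.6 FPKM in Hoxa-flox and 83.1, 60.0 and 96.2 in Hoxa-del, higher by 0.16 and 0.26 within the sets. *Pbx3* measured 169, 159 and 143 FPKM against 160, 146 and 157. *Pbx4* was apart and lower, at 3.89, 4.19 and 3.18 FPKM against 3.12, 2.41 and 2.67. From the other Hox clusters, 2 genes were tested, and both were apart in opposite directions, beside 2.25% of all symbols higher and 4.14% lower. *Hoxb13* was lower (5.64, 5.13 and 5.48 against 3.09, 4.96 and 4.26 FPKM) and *Hoxb4* higher at low levels (0.35, 0.23 and 0.26 against 0.70, 0.42 and 0.38 FPKM).

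Genes linked to HOXA9, MEIS1 or MLL fusions had a median of -0.10, and 0 of 27 passed. *Id2*, an inhibitor of basic helix-loop-helix factors, was apart and higher at 1.30, 0.68 and 0.83 against 1.80, 1.53 and 1.51 FPKM, with a WT change of 0.30. *Igf1r*, the growth factor receptor, measured 10.2, 9.35 and 8.01 FPKM against 21.02, 10.3 and 11.5, apart but by little outside Hoxa-del 1. *Foxp1*, a forkhead repressor named after its values were seen, was the 1 of 27 apart and lower, beside 4.14% of all symbols (205, 196 and 227 against 188, 149 and 189 FPKM). *Cdk6*, a cell cycle kinase, measured 532, 536 and 346 FPKM against 333, 535 and 270 and followed the sets. *Myc* (132, 128 and 97.6 against 96.6, 137 and 99.8 FPKM) did so too.

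Myeloid differentiation genes did not move as 1 group. For primary granule genes the median was 0.22 (0.27 and 0.19 within the sets, -0.25 in WT cells), with 0 of 13 passing. *Mpo*, myeloperoxidase, named after its values were seen, measured 4.42, 3.80 and 31.1 FPKM in Hoxa-flox and 407, 12.5 and 98.2 in Hoxa-del, a change of 3.12 (SE 1.02, adjusted p = 0.729, limma). It was higher within both sets (1.40 and 2.65), but Hoxa-flox 3 lay above Hoxa-del 2. In WT cells it was between 269 and 326 FPKM with the control virus and between 180 and 195 with Cre. *Elane* and *Prtn3*, serine proteases of the same granules, had changes of 0.16 and -0.12, the latter 0.11 with the set as a term.

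Late neutrophil genes showed how far the sets governed the values. *S100a8*, a subunit of calprotectin, measured 623, 672 and 70.6 FPKM in Hoxa-flox and 818, 636 and 104 in Hoxa-del. *Ngp*, a secondary granule protein gene, measured 453, 433 and 16.5 FPKM against 201, 293 and 14.8, and *Camp*, the cathelicidin gene, 28.6, 27.8 and 2.43 against 27.4, 17.1 and 2.85. Hoxa-del 1 stood with the first set in these genes although it belonged to the second by its first component. The median of the 24 genes was -0.25 within the first set and 0.75 within the second, and the list summed to between 391 and 2556 FPKM in Hoxa-flox and between 498 and 2697 in Hoxa-del. Myeloid transcription factors had a median of 0.01 with 0 of 22 passing, *Spi1* (PU.1) at 239, 216 and 148 against 166, 229 and 168 FPKM. Stem and progenitor genes had a median of -0.17 (0 of 10), with *Cd93* at 108, 109 and 76.4 against 58.3, 98.0 and 53.9 FPKM.

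**Figure D5:**
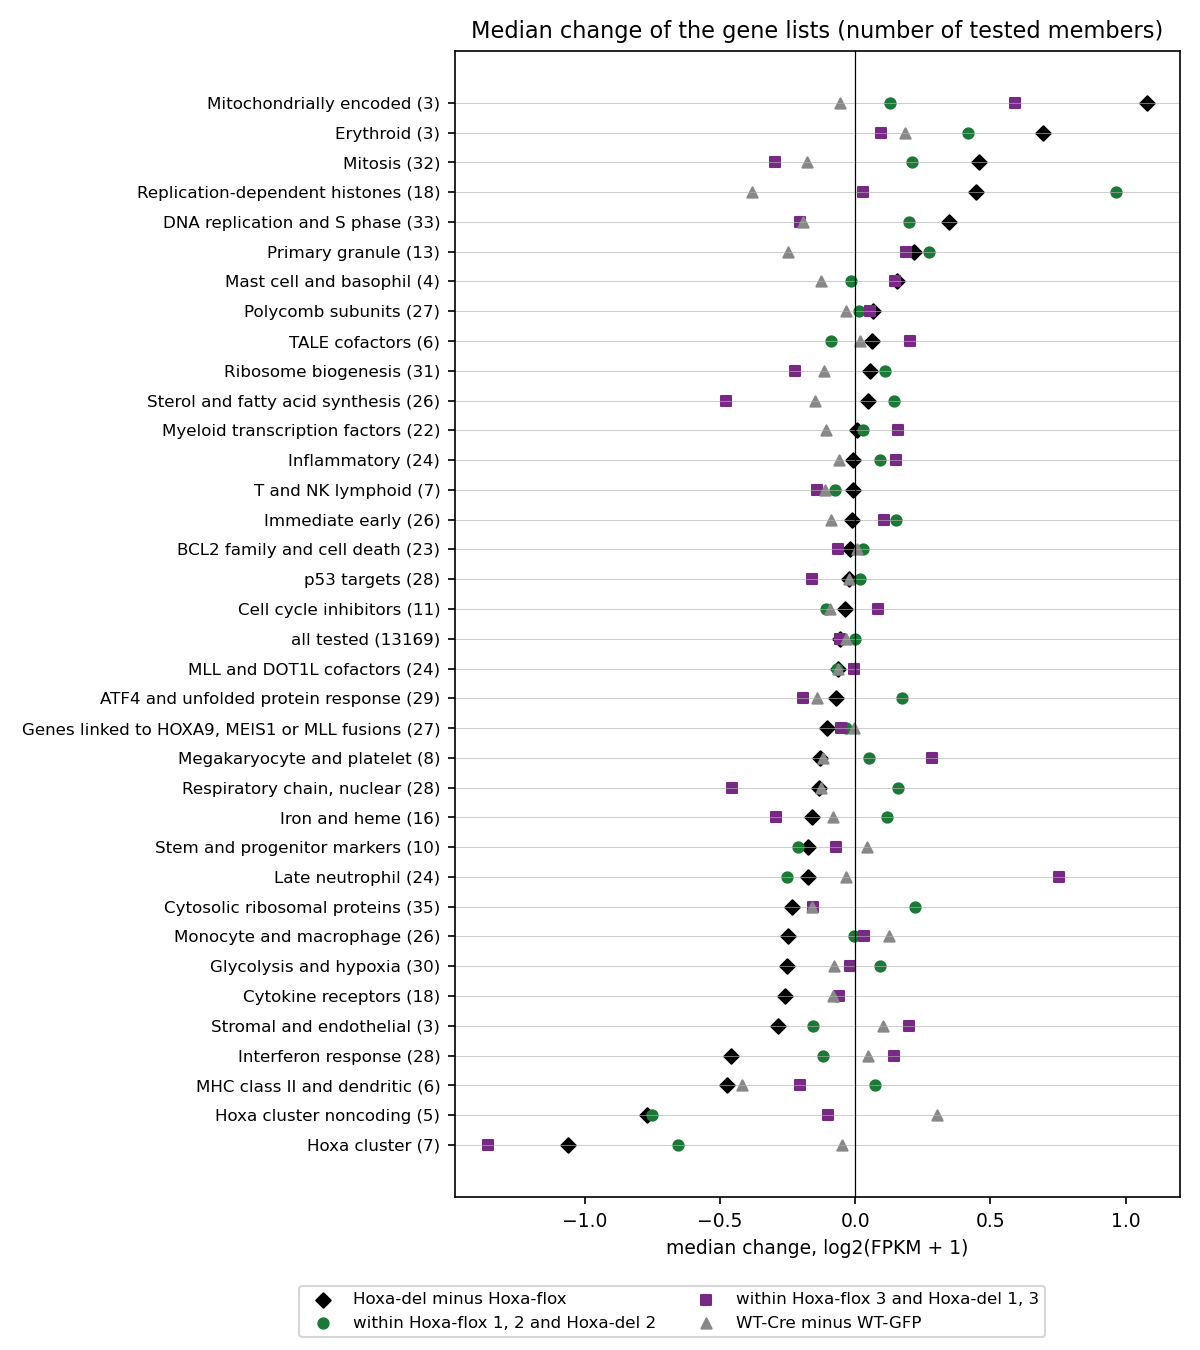
Median change on log2(FPKM + 1) of each gene list with at least 3 tested members, over all 6 floxed libraries (diamonds), within the first set (circles), within the second set (squares) and in WT cells (triangles). The Hoxa cluster lies at -1.06, and several other lists differ in sign between the sets.

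Proliferation genes differed in sign between the sets. Mitosis genes had a median of 0.46 over the 6 libraries but 0.21 and -0.30 within the sets, and S phase genes 0.35 but 0.20 and -0.21. *Mki67*, a marker of cycling cells, measured 16.4, 14.9 and 88.5 FPKM in Hoxa-flox and 84.6, 17.8 and 93.2 in Hoxa-del, which orders the libraries by set and not by virus. The replication-dependent histone genes, whose transcripts have no poly(A) tail, had a median of 0.45, made up of 0.97 in the first set and 0.03 in the second, with -0.38 in WT cells. *Hist1h4c* measured 615, 606 and 656 FPKM against 630, 1242 and 518, with Hoxa-del 2 alone high. *Hist1h2ab* was the 1 of 18 apart (beside 2.25% of all symbols in that direction), at 111, 124 and 148 against 182, 202 and 157 FPKM. In these 3 lists 0 genes passed.

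Interferon response genes had a median of -0.46, which was -0.12 and 0.14 within the sets. *Oas1g* measured 91.4, 89.5 and 38.1 FPKM against 38.9, 97.2 and 33.8 and *Bst2*, tetherin, 143, 141 and 53.5 against 51.6, 111 and 43.4, both in the order of the sets. *Ifih1*, the RNA sensor MDA5, was apart and lower, at 32.9, 29.4 and 29.8 against 25.6, 20.98 and 22.3 FPKM (-0.41, with 0.16 in WT cells). Cell death genes had a median of -0.02. *Casp8* (51.1, 51.9 and 53.3 against 38.3, 45.2 and 47.6 FPKM) and its substrate *Bid* (31.2, 29.7 and 28.2 against 18.0, 28.1 and 25.9) were the 2 of 23 apart, both lower, beside 4.14% of all symbols in that direction, and *Mcl1* overlapped. Among Polycomb subunits 0 of 27 passed or were apart. *Rnf2*, the ubiquitin ligase RING1B, named after its values were seen, measured 50.3, 50.7 and 63.0 FPKM against 35.0, 22.9 and 54.8 and was lower within both sets (-1.11 and -0.51). *Cbx8*, a chromodomain subunit also named after its values were seen, was the 1 higher by over 0.5 within both (0.64 and 0.70), at 14.9, 13.8 and 2.26 against 5.59, 22.8 and 3.23 FPKM.

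Within the inflammatory list (median -0.01, and 0.09 and 0.15 within the sets; 0 of 24 passing), 10 genes were higher and 2 lower within both sets, beside 2717 and 3543 of all 13169 symbols. *Cxcl2*, a neutrophil chemokine named after its values were seen, measured 4.43, 4.40 and 2.13 FPKM in Hoxa-flox and 16.9, 16.5 and 4.40 in Hoxa-del. The lowest Hoxa-del library and the highest Hoxa-flox library overlapped only by a margin in the second decimal. The change was 1.40 (1.69 and 1.65 within the sets, adjusted p = 0.729, limma), and the WT change of *Cxcl2* was -0.54. *Nfkbiz*, an inducible inhibitor of kappa B, was apart at 4.93, 4.83 and 3.38 against 6.89, 6.18 and 6.11 FPKM, with a WT change of 0.28. *Nfkbia*, which encodes the inhibitor that retains NF-kB in the cytoplasm, measured 64.1, 64.4 and 34.8 FPKM against 61.2, 91.0 and 48.4 and overlapped. *Tnf* was apart (7.02, 6.14 and 7.31 against 8.81, 10.2 and 7.36 FPKM), and *Nfkb1* was lower within both sets (-0.22 each).

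The promoters of *Cxcl2* (chr5:90903649-90903948, plus strand) and *Nfkbia* (chr12:55492598-55492897, minus strand) are shown because both genes were higher in both sets and both windows hold the letters GGAANTTCC, most of the NF-kB consensus. Sequences are from RefSeq on GRCm38.p6, 250 bases before to 50 after the start, read 5′ to 3′ on the strand of the gene with the match in capitals.
Cxcl2: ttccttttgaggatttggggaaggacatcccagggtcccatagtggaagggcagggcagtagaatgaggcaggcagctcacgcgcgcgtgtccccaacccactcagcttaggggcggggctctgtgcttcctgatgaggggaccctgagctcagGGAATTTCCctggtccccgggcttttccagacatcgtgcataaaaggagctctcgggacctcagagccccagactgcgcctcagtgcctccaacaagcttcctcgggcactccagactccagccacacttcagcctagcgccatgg
Nfkbia: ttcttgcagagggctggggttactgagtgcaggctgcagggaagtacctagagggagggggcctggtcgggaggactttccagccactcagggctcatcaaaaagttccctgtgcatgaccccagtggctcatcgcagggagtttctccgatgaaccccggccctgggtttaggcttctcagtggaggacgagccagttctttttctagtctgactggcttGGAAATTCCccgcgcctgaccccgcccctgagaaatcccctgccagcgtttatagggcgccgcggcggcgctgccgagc
The motif is its own reverse complement, so a search of 1 strand covers both. It begins 96 bases before the start of *Cxcl2* and 29 bases before that of *Nfkbia*. It occurred in 305 of 32851 promoters of the same length (0.928%). By gene, it occurred for 105 of 8485 tested genes with a promoter in the table. Among these were 6 of the 19 tested inflammatory genes with a promoter (*Cxcl10*, *Cxcl2*, *Cxcl3*, *Icam1*, *Nfkbia* and *Tnfaip3*). Their changes were 0.31, 1.40, 0.45, -0.22, 0.30 and 0.35, with *Icam1* the exception in sign. The list includes genes of the NF-kB pathway, so its share of matches is a description and not a test. Listed genes with the motif were not compared with those without it. A match describes the letters and not a bound site.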

How the data were processed

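All values came from a single table with a column for each of the 12 libraries and 28042 rows named by gene symbol (0 columns had no sample). Its values were read as FPKM, which the deposited table does not name; the submitters' processing notes name GRCm38 and mm10 as builds and Cuffdiff 2.2.2.20150701, Cufflinks and STAR as tools, without saying which step each served. FPKM are not counts, so depth was estimated from the smallest steps between low values and from transcript lengths of 855 genes. For the 1855 symbols listed on several rows, only the row of highest mean entered. Positions and row types are from GENCODE M21 (12471 of the tested symbols matched), and promoters from RefSeq GRCm38.p6.

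Changes were tested on log2(FPKM + 1), a scale that understates changes of low genes, with limma 3.58.1 (limma-trend, R 4.3.3) in 1 fit of 4 groups of 3 libraries, Benjamini-Hochberg adjustment over 13169 symbols and a threshold of 0.05, and checked on simulated data. No count model was used. The members and the 37 lists were chosen with earlier results of these data known. Named genes were every Hoxa gene, genes past the threshold, the 10 higher and 10 lower genes with the largest smaller within-set change (groups apart, at least 5 FPKM in the higher group) and up to 4 members of each list (the 2 with the highest mean and up to 2 with the largest change among those apart). Up to 15 protein-coding genes in each direction with no small RNA inside were added after the values were seen. A few members and named genes are left out of the text. Alternatives were another pseudocount and filters, upper-quartile rescaling, array weights, the replicate number or the set as a term, a fit of only the groups compared, and each library left out.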

Additional observations from a re-analysis of the deposited data

Results flagged for a closer look

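*Rn7sk* had a change with Cre that differed between the floxed and the WT cells by 15.84 on the log2(FPKM + 1) scale (limma, adjusted p = 1.01e-06). The difference rests on the value 0 listed in all 3 Hoxa-flox libraries, its size depends on the pseudocount, and it is not a measured fold. What set these values to 0 was not tested.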

How the results depend on the processing

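The count of 4 genes between Hoxa-del and Hoxa-flox was 7 with no filter on low values, 1 with only the groups compared, 5173 with array weights (2096 higher, 3077 lower) and 3 with the replicate block, and 4 with the other pseudocount, filter, rescaling or the set term. Leaving out 1 library gave from 2 to 787. For WT-Cre against WT-GFP (2 genes) the counts were 5, 5, 18 and, with the replicate block, 0 (limma, 306 at an unadjusted p under 0.05), and from 0 to 7 without 1 library. The difference of the changes (1 gene) gave 4 with no filter, 3452 with array weights, 1 with the replicate block and from 1 to 5 without 1 library. Array weights gave Hoxa-flox 3 a weight of 0.0967 and Hoxa-del 2 a weight of 0.0881, against 5.26 for Hoxa-flox 2.

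Alternatives chosen after seeing the data were run on the 168 higher and 80 lower genes past 0.5 within both sets. These counts were 353 and 183 with a pseudocount of 0.1, 89 and 34 at a mean of at least 5 FPKM, 31 and 12 past 1, and 53 and 32 among protein-coding rows with no small RNA inside. Without Hoxa-flox 1 or 2 or Hoxa-del 1 or 3 they were 162 to 210 and 65 to 120. Leaving out Hoxa-flox 3 or Hoxa-del 2 was not possible, since a set would then lack a virus.

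The replicate block ended the call of *Hoxa9* (adjusted p = 0.196, limma). Same-numbered floxed libraries had deviations from their group means that correlated at -0.30, 0.60 and 0.72 over genes, and WT libraries at 0.01, -0.01 and 0.09, so the numbers were not taken as pairs. Hoxa-flox 1 correlated best with Hoxa-del 2 (0.61). Among 131 named genes, 0 of the 4 that passed turned sign under any setting run. Of the genes that did not pass, 17 turned sign with the set as a term (*Ncl* from 0.47 to -0.13, *Scd2* from 0.20 to -0.36), 15 with array weights, 7 with upper-quartile rescaling and from 4 to 14 without 1 library. The estimated depths of Hoxa-del 1 (7.67 M fragments) and Hoxa-del 2 (6.33 M) limit low genes there.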

Other observations

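Cytosolic ribosomal protein genes, not described above, had a median change of -0.24, with 0.22 within the first set and -0.16 within the second, and 0 of 35 passed the test. *Rpl11*, a ribosomal protein that also binds Mdm2, was lower in every Hoxa-del library (26.2, 27.9 and 20 FPKM in Hoxa-flox against 17.7, 19.9 and 16.4). *Rpl5*, its partner in the 5S particle, was higher in every Hoxa-del library (235, 375 and 149 against 422, 501 and 445 FPKM), and so was *Rps6* (7.29, 9.23 and 18.3 against 19.8, 22.3 and 19.7). In WT cells the changes of the 3 genes were -0.15, 0.60 and 0.22. *Rpl5* scattered in WT-Cre (422, 247 and 121 FPKM), and 3 small RNAs are annotated within its row. *Rps6* was low beside *Rplp1* of the same list, which measured 2616 to 6842 FPKM in the floxed libraries.

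In the lists of lipid synthesis, the unfolded protein response and the respiratory chain 0 genes passed. *Acly*, which makes cytosolic acetyl-CoA, measured 125, 121 and 116 FPKM in Hoxa-flox and 78.8, 114 and 95.5 in Hoxa-del, with the groups apart and a WT change of -0.12. *Pdia6*, a disulfide isomerase of the endoplasmic reticulum, was apart at 138, 144 and 169 against 110, 127 and 133 FPKM. Sterol and fatty acid genes had a median of 0.05, made up of 0.14 in the first set and -0.48 in the second. Nuclear respiratory chain genes had -0.13, with 0.16 and -0.46, and their member *Uqcrc2* was apart and lower (64.9, 63.0 and 68.6 against 51.8, 58.8 and 51.8 FPKM).

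*Fosl1*, an AP-1 subunit, was the 1 immediate early gene of 26 with groups apart, beside 2.25% of all symbols in that direction. It measured 2.67, 3.11 and 4.39 FPKM in Hoxa-flox against 4.57, 5.38 and 5.18 in Hoxa-del, and its WT change was -0.17. *Dusp2*, a phosphatase of MAP kinases named after its values were seen, was higher by 0.57 and 0.60 within the sets (8.55, 8.18 and 6.45 against 8.06, 12.9 and 13.0 FPKM) and overlapped through Hoxa-del 1.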
